A study of Mus musculus with 6 samples.

Results

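The MYC and MAX network is a family of transcription factors of the basic helix-loop-helix leucine zipper type. Its RNA was examined here in hematopoietic stem cells (HSCs) of mouse fetal liver, in Dpy30 knockouts and controls. The 10 genes were taken by name from the family: Myc, Mycn, Max, Mlx, Mxd1, Mxi1, Mxd3, Mxd4, Mnt and Mga. All 10 are among the 38926 genes of the deposited count lists, and all 10 passed the filter on low counts that kept 13646 genes for testing. RNA was sequenced from sorted HSCs of E14.5 embryos in 3 control and 3 knockout samples, with 1 of each genotype from each of 3 litters. Every embryo carried Vav-Cre, a Cre recombinase transgene expressed in blood-forming cells. Control embryos were Vav-Cre; Dpy30F/+ and kept a wild-type Dpy30 allele beside the floxed one, so the comparison is with Cre-bearing heterozygous cells. Knockout embryos were Vav-Cre; Dpy30F/- and had the minus allele in its place. The labels do not say whether a sample came from a single embryo or from pooled embryos. Samples are numbered here by litter.

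MYC and MYCN bind DNA only as a dimer with MAX, chiefly at the E-box CACGTG, and raise the transcription of genes for ribosome assembly, nucleotide synthesis and cell growth. The MXD proteins and MNT also pair with MAX, bind the same E-boxes and recruit the SIN3 corepressor, so they oppose MYC at shared targets. MLX is the MAX-like partner of MNT, of some MXD proteins and of the glucose sensor MondoA (Mlxip), and MGA joins MAX to the Polycomb complex PRC1.6. In HSCs, MYC and MYCN are known to be needed for proliferation, survival and exit from the niche. Dpy30 encodes a core subunit common to the SET1 and MLL enzymes that place methyl groups on histone H3 lysine 4, chiefly near promoters.

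Because the whole network acts through the E-box, the promoters of its own genes were searched for it. RefSeq promoters (GRCm38.p6, 250 bases before to 50 after the start site) were found for 9 of the 10 genes, all but Myc. The palindrome CACGTG stood in 4 of the 9, or 44.4%, against 8.09% of 27025 genes with a promoter and 11.8% (1080) of the 9191 tested genes with one. These are the 30 bases around each match, 5′ to 3′ on the gene's strand with the E-box in capitals, at chr12:76962234-76962263, chr11:101087238-101087267, chr11:74830789-74830818 and chr5:34187912-34187941 in that order.
Max: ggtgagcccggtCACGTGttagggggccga
Mlx: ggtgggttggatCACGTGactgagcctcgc
Mnt: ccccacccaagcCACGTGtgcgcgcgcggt
Mxd4: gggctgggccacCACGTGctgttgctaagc
The match began 3 bases before the start site in Max, 40 before it in Mlx, 123 in Mnt and 219 in Mxd4. The related E-box CACGCG, searched on both strands as CACGCG or CGCGTG, was present in 1 of the 9 genes, Mga, and in 19.9% of tested genes with a promoter. A match is a stretch of letters and not a measured binding site.

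Counts assigned to genes ranged from 31897737 to 43394700 per sample, of which mitochondrial genes took 49.2% to 67.7%. Dpy30 was at 26.8 ± 4.196 CPM in the control group and 9.18 ± 3.999 CPM in the knockout group (SD, n = 3 each), with every knockout below every control (log2 fold change -1.55 and adjusted p = 0.672 in edgeR, adjusted p = 0.131 in DESeq2). CPM is the count scaled to a library of 1e+06 counts after adjustment by trimmed mean of M values (TMM). All 16 HSC marker genes were detected, with Kit at 194 ± 21.4 CPM and Hlf at 168 ± 10.1 CPM in controls, while Ly6a, the gene of the surface marker Sca-1, was at 0.835 ± 0.857 CPM. Knockout 3 stood apart in this list, with a summed 809 CPM against 1087 to 1482 in the other 5 samples, and with Hlf at 27.2 CPM and Mecom at 11.6 CPM. The 12 macrophage and monocyte markers summed to 175 to 258 CPM in controls and to 597, 352 and 1490 CPM in knockouts 1 to 3, with 10 of the 11 tested higher on average and none at 0 in every sample. The 9 granulocyte and mast cell markers summed to 43.1 to 124 CPM in controls and 80.8 to 403 CPM in knockouts, and the 11 erythroid markers found to 1390 to 2495 and 1062 to 3023 CPM. The 5 megakaryocyte markers summed to 73.8 to 104 CPM in controls and to 160, 171 and 90.6 CPM in knockouts 1 to 3. DESeq2 called 3 macrophage and monocyte markers higher, 1 megakaryocyte marker (Gp1ba) higher and 1 erythroid marker lower. It called 0 in the HSC, granulocyte and mast cell, hepatocyte and lymphoid lists, beside 1.03% of all genes. The 10 hepatocyte markers summed to 6.26 to 23.7 CPM and the 8 lymphoid markers to 0.104 to 7.03 CPM over all samples, with Cd3e at 0 in each. In bulk RNA, fewer cells of a type and less RNA per cell cannot be told apart.

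In edgeR's quasi-likelihood test, no network gene was called between the genotypes, as 0 of the 10 had an adjusted p under 0.05. The same test called 0 of all 13646 genes, or 0%. At an unadjusted p under 0.05 edgeR found 0 of the 10, beside 6.51% of all genes. DESeq2 called 0 of the 10, beside 1.03% of all genes. No member separated the genotypes, since knockout and control values overlapped for all 10, where 14.1% of all tested genes did not overlap in either direction. The members closest to the threshold were Mxd4 and Myc, both higher in the knockout on average.

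Myc (ENSMUSG00000022346.15; chromosome 15, 61985391 to 61990374, plus strand, GRCm38) was the most abundant member per length of exon. It stood at 211, 179 and 211 CPM in controls 1 to 3 and at 297, 347 and 209 CPM in knockouts 1 to 3. Knockouts 1 and 2 lay above every control, and knockout 3 lay inside the control range. The means were 200.4 ± 18.7 CPM and 284 ± 69.9 CPM (SD, n = 3 each), a log2 fold change of 0.50 (SE 0.24; edgeR adjusted p = 0.775). Within litters the log2 difference was 0.49, 0.96 and -0.01. Leaving out knockout 3 gave 0.70 (edgeR adjusted p = 0.607), and over all alternatives it stayed between 0.34 and 0.72. The summed megakaryocyte markers and the summed HSC markers were also highest in knockouts 1 and 2. The HSC sum was 1312 and 1482 CPM there, against 1087 to 1240 CPM in controls. The part of either list in the Myc value was not tested.

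Mycn (ENSMUSG00000037169.15; chromosome 12, 12936093 to 12941914, minus strand), the N-MYC gene, had 41.7, 25.9 and 40.4 CPM in controls 1 to 3 and 42.04, 82.3 and 4.68 CPM in knockouts 1 to 3. The coefficient of variation (CV) was 24.3% in controls and 90.3% in knockouts. Knockout 2 held the highest value of all samples and knockout 3 the lowest. The log2 fold change of 0.26 (SE 0.80; edgeR adjusted p = 0.977) had no settled sign: it was 0.80 without knockout 3 and -0.62 without knockout 2. Knockout 3 was also the sample with the lowest Hlf and Mecom, and the part of this in the Mycn value was not tested.

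**Figure D1:**
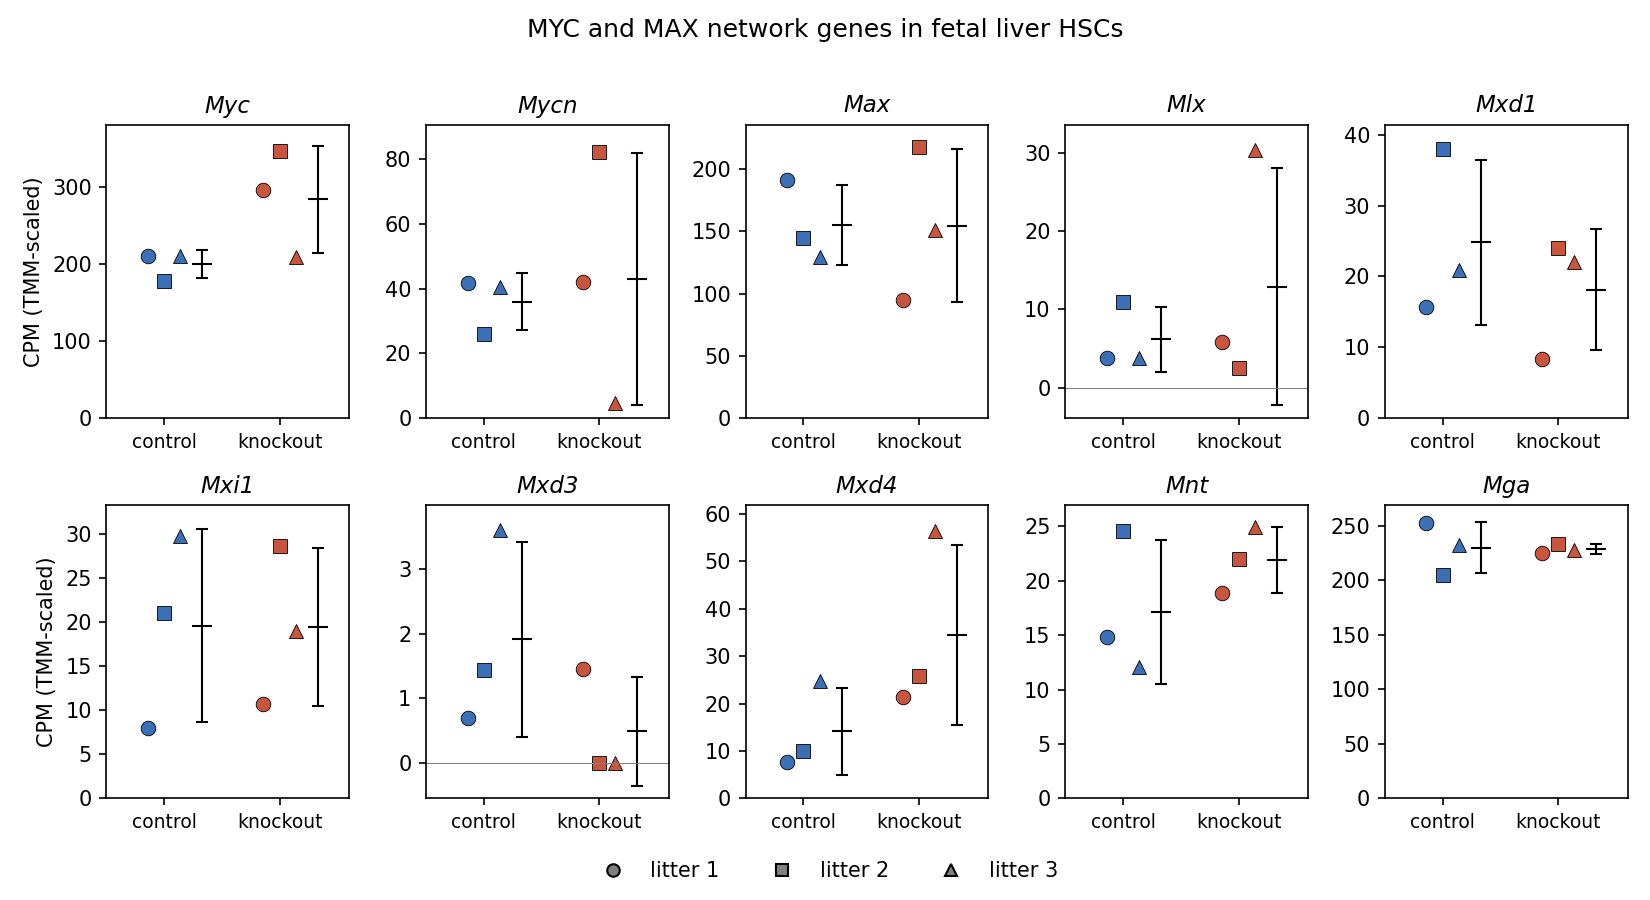
CPM of each network gene (vertical axis, TMM-scaled, own linear scale per panel) in controls (blue) and knockouts (red). Marker shape is the litter, and the black bars give mean ± SD of 3 samples. Myc shows 2 knockouts above all controls, Mycn spreads from 4.68 to 82.3 CPM in knockouts, and Mga stays between 205 and 252 CPM throughout.

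Max (ENSMUSG00000059436.13; chromosome 12, 76937269 to 76962201, minus strand), a partner shared by both sides, had close means in the genotypes but not close values in each litter. It had 191, 144 and 129.7 CPM in controls 1 to 3 and 95.2, 218 and 151 CPM in knockouts 1 to 3. Knockout 1 was the lowest and knockout 2 the highest of all 6 samples. The means were 155 ± 32.0 and 154.6 ± 61.4 CPM (SD, n = 3 each), with a log2 fold change of -0.0034 (SE 0.32; edgeR adjusted p = 0.999).

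Mlx (ENSMUSG00000017801.15; chromosome 11, 101087277 to 101092207, plus strand) was low and uneven. Its values were 3.80, 10.9 and 3.81 CPM in controls 1 to 3 and 5.84, 2.56 and 30.4 CPM in knockouts 1 to 3. The high value was that of knockout 3 alone, with 1063 counts where the other 5 samples had 93 to 409. On the log2 scale the knockout was higher by 1.06 (SE 0.98; edgeR adjusted p = 0.8998), and the value turned to -0.55 without knockout 3. In the GENCODE annotation 19.3% of the Mlx exon length overlaps exons of Psmc3ip on the opposite strand, and reads there cannot be told apart without strand information.

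Among the MXD antagonists, Mxd4 was higher and Mxd1 and Mxd3 were lower in the knockout on average, and none passed the test. Mxd4 (ENSMUSG00000037235.13; chromosome 5, 34173883 to 34187720, minus strand), a MAX partner known from differentiating and resting cells, had 7.77, 10.0026 and 24.7 CPM in controls 1 to 3 and 21.4, 25.9 and 56.3 CPM in knockouts 1 to 3. The groups overlapped because control 3 lay above knockout 1, yet each knockout was above its own litter mate. The means were 14.2 ± 9.21 and 34.5 ± 19.0 CPM (SD, n = 3 each), or 2.44-fold, with a log2 fold change of 1.28 (SE 0.59; edgeR adjusted p = 0.775). Within litters the log2 difference was 1.45, 1.37 and 1.19. Mxd4 was the 1 member of the 10 that was higher in the knockout in all 3 litters, as were 12.3% of all tested genes. A fit that pairs litter mates as a block gave 1.34 (SE 0.41; edgeR adjusted p = 0.953), and leaving out knockout 3 gave 0.75 and leaving out control 3 gave 1.96. Knockout 3, the highest for Mxd4, was also the highest for the macrophage markers, whose part in the result was not tested. In the GENCODE annotation 6.06% of the Mxd4 exon length overlaps exons of Gm42846 on the opposite strand. That gene is absent from the deposited lists, and reads there cannot be told apart without strand information.

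Mxd1 (ENSMUSG00000001156.9; chromosome 6, 86647042 to 86669161, minus strand), the MAD1 gene, had 15.7, 37.9 and 20.9 CPM in controls 1 to 3 and 8.30, 24.0 and 22.1 CPM in knockouts 1 to 3. It was lower in the knockout in litters 1 and 2, by -0.91 and -0.66 on the log2 scale, and nearly level in litter 3, at 0.08. The fitted difference was -0.45 on the log2 scale (SE 0.54; edgeR adjusted p = 0.926). Mxi1 (ENSMUSG00000025025.14; chromosome 19, 53310518 to 53375810, plus strand), the gene of a MAX partner also called MXD2, had 8.01, 21.02 and 29.8 CPM in controls and 10.7, 28.6 and 18.9 CPM in knockouts 1 to 3. The 2 ranges overlapped almost fully, and the fitted difference was -0.01 on the log2 scale (SE 0.59; edgeR adjusted p = 0.998).

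Mxd3 (ENSMUSG00000021485.14; chromosome 13, 55325168 to 55329823, minus strand), whose product is known from cells in S phase, was the rarest member. Its raw counts were 20, 54 and 159 for controls 1 to 3, against 58, 0 and 0 for the knockouts. These are 0.691, 1.44 and 3.61 CPM in controls and 1.46 CPM in knockout 1. The 0 counts allow a level of up to 0.0827 CPM in knockout 2 and 0.0857 CPM in knockout 3, which is the level of 3 counts and covers counting error only. In the GENCODE annotation 4.43% of the Mxd3 exon length overlaps exons of Prelid1 on the opposite strand, a gene with 837 to 2011 counts per sample, and reads there cannot be told apart without strand information. Knockouts 2 and 3 were thus below every control and knockout 1 was above control 1 and control 2. The fit gave -1.97 on the log2 scale (SE 2.06; edgeR adjusted p = 0.908), a value that depends on the handling of 0 counts and reached -9.12 without knockout 1.

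The repressors outside the MXD group had lower CVs than the MXD genes in both genotypes. Mnt (ENSMUSG00000000282.12; chromosome 11, 74830920 to 74845725, plus strand), the broadly expressed MAX partner, had 14.8, 24.6 and 12.04 CPM in controls 1 to 3 and 18.9, 21.96 and 24.9 CPM in knockouts 1 to 3. The fitted difference was 0.35 on the log2 scale (SE 0.42; edgeR adjusted p = 0.926). Mga (ENSMUSG00000033943.15; chromosome 2, 119897228 to 119969581, plus strand) had 252, 205 and 232 CPM in controls and 225, 233 and 228 CPM in knockouts 1 to 3. All 3 knockouts lay inside the control range. The CV was 10.3% in controls, where only Myc had a lower one at 9.35%, and 1.90% in knockouts, the lowest of the 10. The fitted difference was -0.01 on the log2 scale (SE 0.19; edgeR adjusted p = 0.997).

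**Figure D2:**
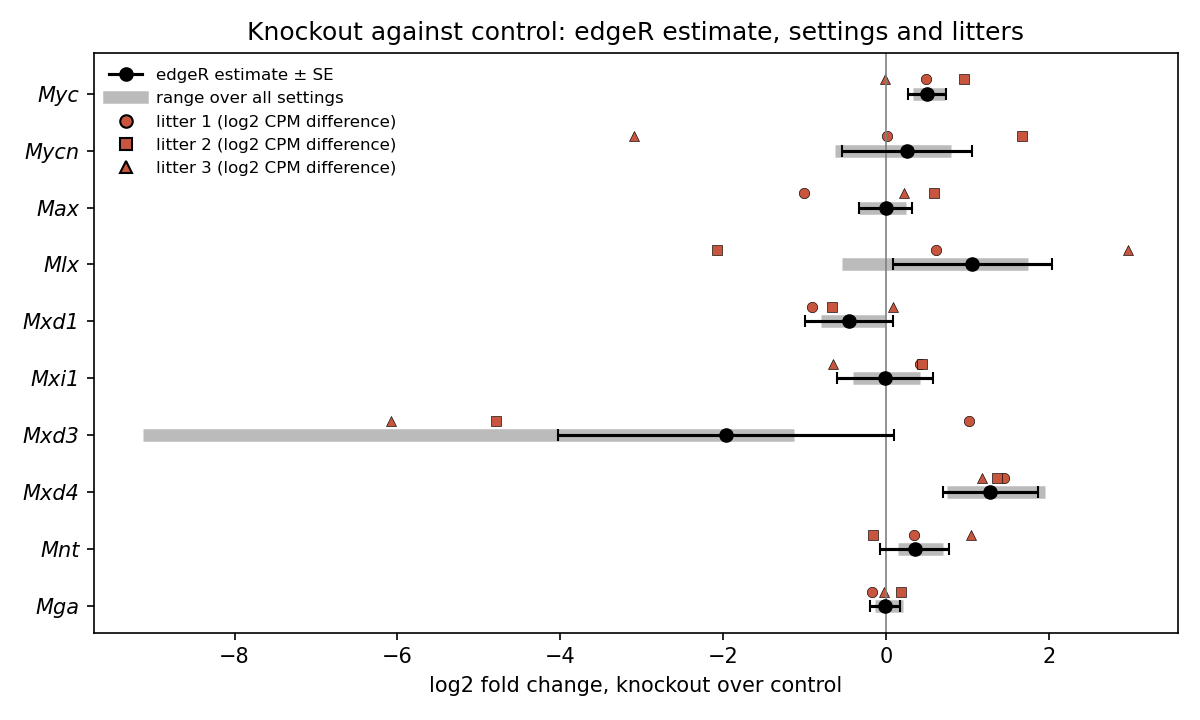
Log2 fold change of each network gene, knockout over control (horizontal axis). Black points give the edgeR estimate ± SE, grey bars the range over the main fit and all alternatives, and red markers the log2 CPM difference within each litter. The 3 litters lie together at 1.19 to 1.45 for Mxd4 and far apart for Mycn, Mlx and Mxd3.

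The activators were then set against the MXD antagonists on a scale that allows genes to be added, CPM per kilobase of exon. The exon length is the union over all annotated transcripts. It was 2717 bases for Myc, 3295 for Mycn, 2369 for Mxd3 and 6823 to 8483 for Mxi1, Mxd1 and Mxd4. Ratios between genes depend on these lengths, and the transcripts in use were not examined. Myc and Mycn together came to 90.4, 73.7 and 89.97 in the 3 controls by litter and to 122, 153 and 78.4 in the knockouts. Mxd1, Mxi1, Mxd3 and Mxd4 together came to 4.60, 10.2 and 11.8 in the controls and to 5.88, 10.6 and 12.5 in the knockouts. The antagonist sum was close within each litter, and its larger step lay between litter 1 and the others. Activator RNA exceeded antagonist RNA by a ratio of 19.7, 7.199 and 7.66 in the controls by litter and of 20.7, 14.4 and 6.25 in the knockouts. The ratio therefore overlapped between the genotypes, with means of 11.5 ± 7.07 and 13.8 ± 7.26 (SD, n = 3 each). Activator over Max was 1.70, 1.84 and 2.496 in controls and 4.61, 2.52 and 1.87 in knockouts, the largest value being that of knockout 1, where Max was lowest. Averaged as log2 CPM over genes instead, activators exceeded MXD antagonists by 3.15 ± 0.885 with Dpy30 and 3.75 ± 1.27 without it (SD, n = 3 each), with litter differences of -0.24, 2.22 and -0.19. The difference of 0.60 became 0.92 with a prior count of 0.5, which turned litter 3 to 0.30. It was 0.33 with Mnt and Mga added to the antagonists. As a log2 ratio of the sums per kilobase it was 0.26, with litter differences of 0.08, 0.996 and -0.29. In the average over genes, Mxd3 weighs as much as each other antagonist. Its litter differences were 1.02, -4.79 and -6.08, with 0 counts in knockouts 2 and 3. Those of the other antagonists were -0.91, -0.66 and 0.08 for Mxd1, 0.42, 0.44 and -0.65 for Mxi1, and 1.45, 1.37 and 1.19 for Mxd4. For the activators the median of Myc and Mycn was 0.25, 1.31 and -1.55. With Mxd3 left out of this average, the mean difference is negative, with litters 1 and 3 below 0 and litter 2 above 0. The positive sign of the 0.60 therefore rests on Mxd3.

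The make-up of the antagonist RNA was also compared. Mxd4 supplied 19.9%, 11.5% and 24.8% of the antagonist RNA per kilobase in the controls by litter and 42.8%, 28.7% and 52.9% in the knockouts. Every knockout lay above every control in this share, as did 6.39% of all tested genes in CPM. It was 1 of several shares compared, and with 3 samples per group an exact permutation test cannot give a p under 0.1. The CPM of Mxd4 itself overlapped between the genotypes. The sum includes Mxd3, which supplied 13.0% of it in control 3 and had 0 counts in knockouts 2 and 3. With Mxd3 left out of the sum, the Mxd4 shares of control 3 and knockout 2 are nearly equal, so the separation of the genotypes leans on Mxd3. Mxd1 supplied 48.2%, 52.4% and 25.1% in controls and 19.96%, 31.9% and 24.9% in knockouts, with knockout 2 above control 3. The share of Mycn in activator RNA was 13.99%, 10.7% and 13.6% in controls and 10.5%, 16.4% and 1.81% in knockouts 1 to 3.

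**Figure D3:**
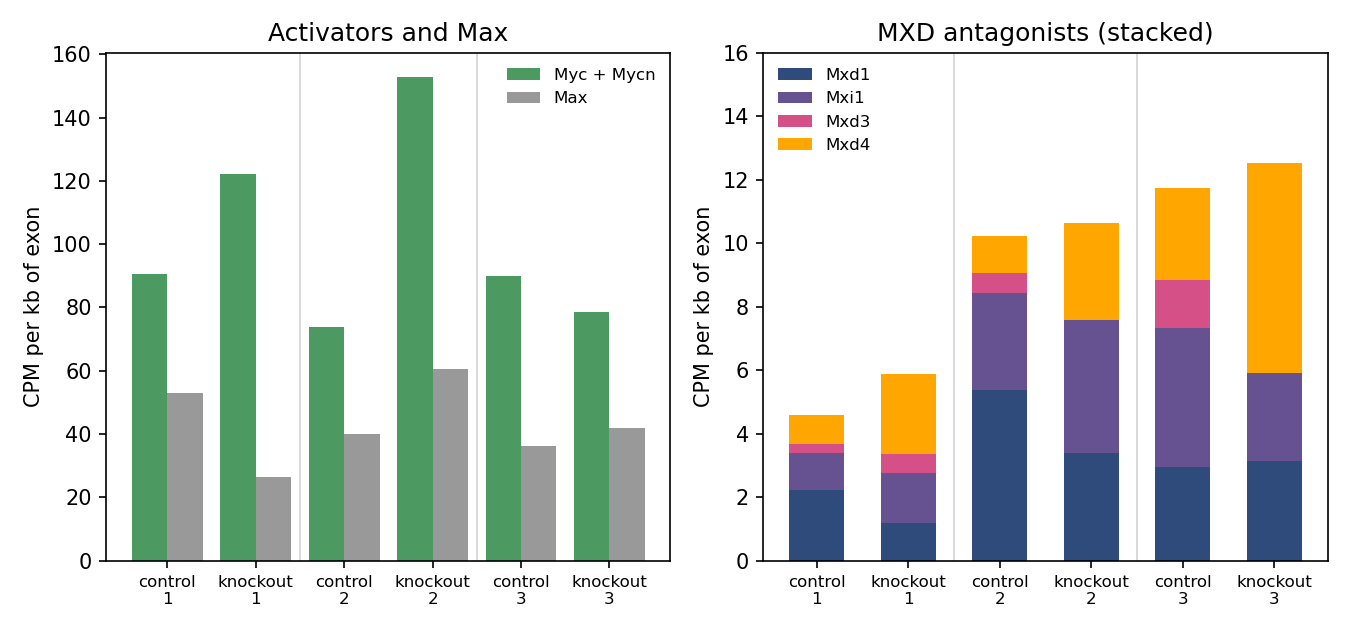
Left, summed CPM per kilobase of exon of Myc and Mycn (green) and of Max (grey) in each sample, ordered by litter. Right, the 4 MXD antagonists stacked on the same unit. Antagonist totals of litter mates are close, from 4.60 and 5.88 in litter 1 to 11.8 and 12.5 in litter 3, while the Mxd4 part is larger in each knockout.

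By level per kilobase in controls the order was Myc at 73.8 ± 6.90, Max at 43.1 ± 8.89, Mga at 14.98 ± 1.54, Mycn at 10.9 ± 2.66, Mnt at 3.71 ± 1.43, Mxd1 at 3.51 ± 1.65, Mlx at 3.09 ± 2.06, Mxi1 at 2.87 ± 1.604, Mxd4 at 1.67 ± 1.09 and Mxd3 at 0.808 ± 0.639 CPM per kb (SD, n = 3). The control ranges of neighbours were separate for the first 5 of these genes. From Mnt down to Mxd3 each gene overlapped the next, so their order is not resolved by 3 samples. Mycl, the L-MYC gene, was at 0 counts in every sample, Mlxipl was at 0 in the controls and at a mean of 0.0252 CPM in knockouts, and Mlxip averaged 60.99 ± 9.02 CPM with Dpy30 and 80.03 ± 7.87 CPM without it (SD, n = 3 each; edgeR log2 fold change 0.39, adjusted p = 0.834). Every knockout was above every control for Mlxip, as for 6.39% of all tested genes.

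Genes that MYC is known to induce lay mostly on the lower side in the knockout. Of 40 such genes 39 were tested, and edgeR called 0 of them while DESeq2 called 2, both lower, beside 1.03% of all genes in either direction (34 lower and 104 higher). The list had 35 genes with a negative and 4 (10.3%) with a positive log2 fold change, beside 50.8% positive over all genes tested. Its median was -0.35 against 0.01 over all genes tested. The list was drawn up with earlier results of these data known, and the part of macrophage marker RNA in it was not tested. In 12 of the 39 every knockout lay below every control (Ncl, Npm1, Nop58, Nolc1, Wdr43, Dkc1, Gnl3, Nme1, Srm, Eif4a1, Tfrc and Hspd1), where 7.74% of all tested genes did, and 17 were lower in all 3 litters, where 15.9% of all genes were. The median within litters was -0.61, -0.03 and -0.51 in litters 1 to 3, where that of all tested genes was 0.02, -0.08 and -0.17. In litter 2 the list thus did not lie below all genes. The list median over both genotypes ranged from -0.47 to -0.27 when a sample was left out. Scaling by library size alone moved the median of all genes to 0.23 and that of the list to -0.13. The list then had 28 genes negative and 11 positive. Relative to all genes the list was at -0.36 in both scalings, and between -0.47 and -0.25 over all settings.

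The calls in this list were Tfrc and Gnl3. Tfrc, the transferrin receptor and also a gene of red cell precursors, had 381, 364 and 332 CPM in controls 1 to 3 and 96.6, 138 and 147 CPM in knockouts 1 to 3 (DESeq2 adjusted p = 3.99e-05, edgeR adjusted p = 0.537). Gnl3, which encodes the nucleolar GTPase nucleostemin, had 78.5, 93.2 and 87.8 CPM in controls and 30.04, 45.1 and 16.7 CPM in knockouts (DESeq2 adjusted p = 0.0361, edgeR adjusted p = 0.622). For both genes the genotypes did not overlap. Tfrc is also on the erythroid marker list, of which 6 of the 11 tested genes had a negative log2 fold change, and the part of erythroid cells in its value was not tested. The next by p in edgeR were the mitochondrial chaperonin gene Hspd1, from 493 ± 66.1 to 273 ± 64.0 CPM (edgeR adjusted p = 0.642), and Nolc1, for a nucleolar phosphoprotein, from 154 ± 18.4 to 93.2 ± 19.1 CPM (SD, n = 3 each; edgeR adjusted p = 0.709). The nucleolar gene Ncl was at 1957 ± 137 and 1441 ± 229 CPM and the spermidine synthase gene Srm at 103.5 ± 2.43 and 65.3 ± 14.4 CPM (SD, n = 3 each), again without overlap. Ccnd2, for cyclin D2, went the other way, with 106, 87.6 and 109 CPM in controls and 103, 213 and 240.0 CPM in knockouts 1 to 3 (edgeR adjusted p = 0.729). Odc1, Cdk4, Cad and Ldha, often cited as MYC targets, overlapped between the genotypes.

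Genes that MYC is known to repress lay mostly on the higher side. Of 13 listed, 10 were tested, 8 of them (80%) with a positive log2 fold change, beside 50.8% of all genes tested. The median was 1.134 against 0.01 over all genes. This list too was drawn up with earlier results of these data known. edgeR called 0 and DESeq2 called 2, both higher, beside the same 1.03% of all genes. Without a filter on low counts, and with at least 10 counts in every sample, edgeR called 1 of the list, Cdkn1a. Cdkn1a, for the cell cycle inhibitor p21 and also a p53 target, had 1.93, 2.995 and 1.45 CPM in controls 1 to 3 and 33.5, 92.5 and 164 CPM in knockouts (DESeq2 adjusted p = 2.28e-18, edgeR adjusted p = 0.452). Itgal, for an integrin of blood cells, had 12.2, 6.47 and 19.05 CPM in controls and 64.99, 49.1 and 129.9 CPM in knockouts (DESeq2 adjusted p = 0.000123, edgeR adjusted p = 0.589). For both, every knockout was above every control, as for 6.39% of all tested genes. Cebpa and Gadd45a had edgeR p of 0.0686 and 0.0855, with the highest values in knockout 3. The list median depended on knockout 3, as it was 0.20 without that sample, which also held the most macrophage marker RNA. It was 0.58 with litter as a block and 0.08 in limma-voom with sample weights, and within litters it was -0.48, 0.74 and 2.47. The part of that RNA in the list was not tested.

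**Figure D4:**
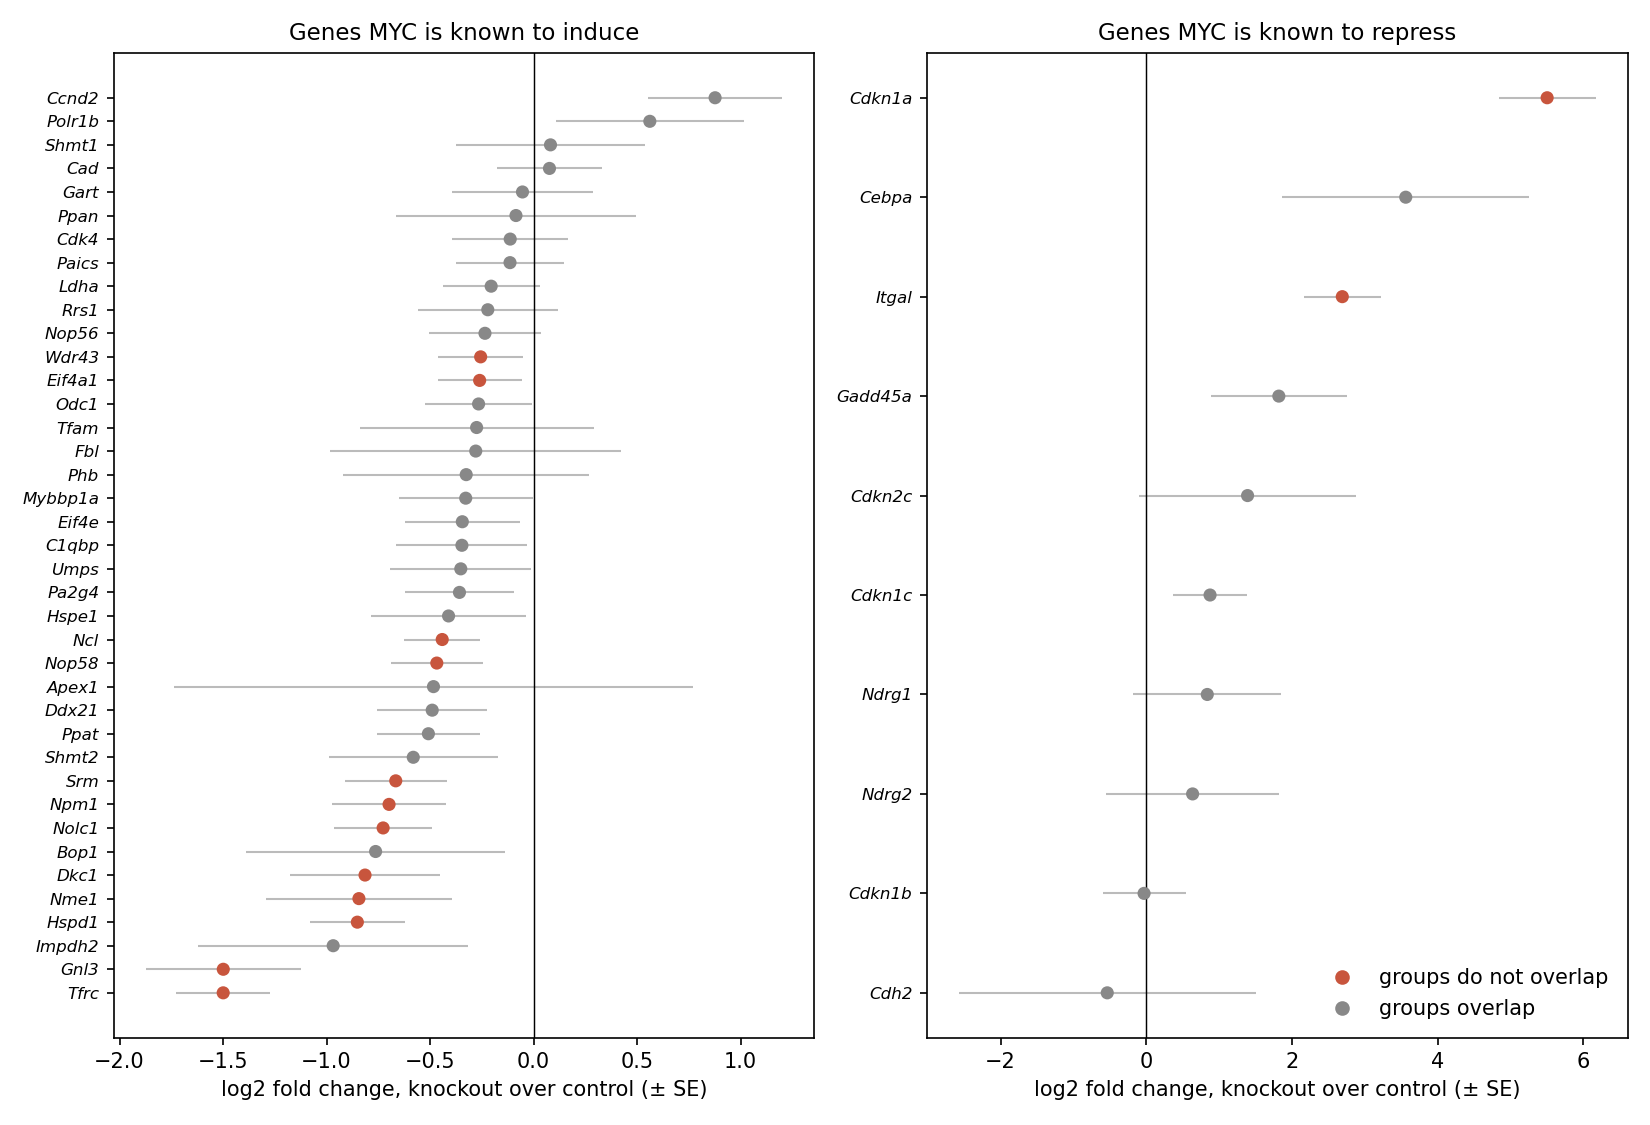
Log2 fold change ± SE (edgeR, knockout over control, horizontal axis) of tested genes that MYC is known to induce (left, 39 genes) and to repress (right, 10 genes). Red points are genes whose knockout and control values do not overlap. On the left 35 genes lie below 0 and Ccnd2 is the highest, while on the right Cdkn1a is the highest at 5.51.

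The cofactors of the network had 0 calls in edgeR and 0 in DESeq2, beside 0% and 1.03% of all genes. At an unadjusted p under 0.05 edgeR found 1 higher and 1 lower of 15 genes in the SIN3 list and 2 lower of 10 in the PRC1.6 list. It found 0 among coactivators and turnover genes, and 6.51% of all genes passed in either direction. The 13 MYC coactivators had a median log2 fold change of -0.07, which became 0.17 with library size scaling and 0.08 without knockout 3. Wdr5, a subunit that MYC shares with the SET1/MLL complexes, was at 31.4 ± 5.03 CPM with Dpy30 and 26.3 ± 8.66 CPM without it (SD, n = 3 each; edgeR adjusted p = 0.940). Among 12 genes of MYC protein turnover the median was 0.10, and it was -0.12 without knockout 1, -0.06 without knockout 2 and -0.03 without control 1. Aurka, a mitotic kinase that stabilises N-MYC, had 22.1, 26.8 and 24.7 CPM in controls 1 to 3 and 14.6, 17.5 and 5.06 CPM in knockouts 1 to 3 (edgeR adjusted p = 0.797). Fbxw7, for the ubiquitin ligase subunit that marks MYC for degradation, was at 31.2 ± 10.3 and 18.2 ± 10.3 CPM (SD, n = 3 each; edgeR adjusted p = 0.848). Stub1, for a ubiquitin ligase, was under 1 CPM in every sample.

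The SIN3 corepressor list, through which MXD proteins and MNT act, had a median of 0.15 over 15 genes. It was 0.33 without knockout 1, 0.09 without knockout 2, 0.05 with upper-quartile scaling and 0.40 with library size scaling. Its scaffold Sin3a had 113.5, 97.1 and 89.8 CPM in controls 1 to 3 and 119, 167 and 203 CPM in knockouts 1 to 3 (edgeR log2 fold change 0.70, adjusted p = 0.729). Every knockout was above every control for Sin3a, as for 6.39% of all tested genes. Sap18 lay the other way, at 35.4, 27.6 and 14.6 CPM in controls and 12.9, 11.8 and 9.85 CPM in knockouts (edgeR adjusted p = 0.749). In the PRC1.6 list, the partners of MGA, the median was -0.14 over 10 genes, or 0.07 with library size scaling, and 4 of the 10 had every knockout below every control, beside 7.74% of all tested genes. Pcgf6, the Polycomb ring finger protein that defines PRC1.6, had 14.54, 19.5 and 13.5 CPM in controls and 6.26, 5.32 and 1.94 CPM in knockouts 1 to 3 (log2 fold change -1.81 and adjusted p = 0.729 in edgeR, adjusted p = 0.197 in DESeq2). E2f6, Tfdp1 and Cbx3 were the other 3, Tfdp1 at 52.7 ± 6.72 and 33.9 ± 3.81 CPM (SD, n = 3 each; edgeR adjusted p = 0.762).

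Over the 6 samples, the genes whose log2 CPM followed Myc most closely among 6761 genes of at least 10 CPM were Phka2, Wdr1, Spns2 and Exosc1, with Pearson r of 0.980, 0.976, 0.968 and 0.967. Those closest to Mycn were Zc3h15, Angpt1, Eif2d and Cd27, with r of 0.995, 0.995, 0.994 and 0.990. Angpt1, for a niche cytokine that HSCs also make, had 40.9, 33.2 and 47.04 CPM in controls and 48.2, 69.9 and 7.88 CPM in knockouts 1 to 3, highest in knockout 2 and lowest in knockout 3 as Mycn was. In all, 58 genes had r above 0.9 with Myc and 330 with Mycn. These genes were picked as the highest of 6761 over samples that share their scaling, so r is given as a description only.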

How the data were processed

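Sorted fetal liver HSCs were profiled by poly(A) RNA sequencing in 3 controls and 3 Dpy30 knockouts. For every sample the authors deposited a list of gene symbols with raw read counts. The submitters' processing notes name CASAVA 1.8.4, TopHat2, Picard 1.126, HTSeq 0.6.0, DESeq and bedtools 2.17.0, and the build mm10. Annotation and strandedness are not given in the sources used here. The 5 closing tallies of unassigned reads, including reads aligned more than once, held 41.01% to 51.0% of all reads listed and were left out. Counts are therefore uncertain for genes with close copies elsewhere in the genome, including Npm1, Fbl, Nme1 and Nme2.

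Genes were filtered with filterByExpr and scaled by TMM, and the genotypes were compared by edgeR's quasi-likelihood test (edgeR 4.0.16, R 4.3.3) on genotype alone, with Benjamini-Hochberg adjustment over all 13646 genes and a threshold of 0.05. SE was taken as the absolute log2 fold change divided by the root of the F statistic. Log2 CPM used a prior count of 2. The alternatives were 17: litter as a block, other scalings and filters, DESeq2 1.42.0, limma 3.58.1 (voom) and leaving out each sample. Levels per kilobase used the union exon length in GENCODE vM21 (GRCm38). The procedure was tested on simulated counts. The common biological coefficient of variation in edgeR was 0.817. The labels give no culture or animal beyond the litter, so p-values measure the spread between these samples. The labels pair the samples by litter, and deviations from the genotype means of litter mates correlated at -0.022, -0.075 and 0.0034. The members and lists were chosen with earlier results of these data known. All 10 members were named, and of each list the genes called or those with the smallest p (up to 4), and others named after their values were seen. Likeness to Myc and Mycn was ranked over genes of at least 10 CPM. Some genes of the lists are not reported here.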

Additional observations from a re-analysis of the deposited data

How the results depend on the processing

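The count of network genes called was 0 in the main fit and in all 17 alternatives, and ranged from 0 to 0 when 1 sample was left out. At an unadjusted p under 0.05, Mxd4 passed with the replicate block, without a filter, in DESeq2, in DESeq2 with the block, without knockout 1 and without control 3. Myc passed with scaling by library size only, in limma-voom with sample weights and without knockout 3, and Mxd3 in DESeq2 with the block and without knockout 1. The count over all genes, 0 in edgeR, was 1 without a filter on low counts, 1 with at least 10 counts in every sample, 138 in DESeq2 and 277 in DESeq2 with replicate block. The replicate block, which pairs litter mates, changed no call of a network gene in edgeR or DESeq2 and no count of calls over all genes in edgeR.

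The signs of Mycn, Max, Mxi1, Mga and Mlx were not settled. Mycn was -0.36 with the replicate block, -0.35 in DESeq2 with the block and -0.43 in limma-voom. Max was 0.014 with DESeq2-style size factors, 0.19 with library size only, 0.0098 without mitochondrial genes and 0.014 in DESeq2. In the same 4 settings Mxi1 was 0.0084, 0.061, 0.0046 and 0.0084 and Mga was 0.0094, 0.21, 0.0040 and 0.0095. With the replicate block Mxi1 was 0.075, in DESeq2 with the block it was 0.092 and Mga 0.014, and Mga was 0.0034 in limma-voom and 0.012 with sample weights. Leaving out 1 sample gave -0.62 to 0.80 for Mycn, -0.33 to 0.25 for Max, -0.40 to 0.42 for Mxi1, -0.081 to 0.065 for Mga and -0.55 to 1.75 for Mlx. The cause was not tested. Of 169 refits of single members, 137 kept their sign and 32 did not. Depth limits Mxd3, with 0 to 159 counts per sample.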

Other observations

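Txnip and Arrdc4, the best known targets of the MondoA and MLX pair, lay in opposite directions on average. Txnip had 55.1, 79.9 and 35.2 CPM in controls 1 to 3 and 65.6, 63.7 and 133 CPM in knockouts 1 to 3, with its highest value in knockout 3, where Mlx was also highest. Arrdc4 had 1.93, 6.47 and 7.12 CPM in controls and 5.06, 1.27 and 1.74 CPM in knockouts. Over the 5 genes on that list the median log2 fold change came to 0.27, or -0.07 without control 3, with 0 calls in edgeR, 0 at an unadjusted p under 0.05 and 0 in DESeq2. Psmc3ip, the gene that overlaps Mlx on the other strand, received 237, 542 and 490 reads in the controls by litter, against 149, 55 and 122 in the knockouts.

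E-boxes CACGTG stood in the promoters of 12 of 34 genes that MYC is known to induce, or 35.3%, beside 11.8% of tested genes. They stood in 2 of 9 genes that MYC is known to repress, or 22.2%, beside the same 11.8%.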
